A study of Mus musculus with 22 samples.

Results

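The collagen genes of the mouse were taken as the protein-coding genes whose GENCODE symbol reads Col, a number, the letter a and a number. The rule found 44 members among 54356 genes, of which 21815 are protein-coding. Col4a3bp, which encodes a ceramide transfer protein and carries extra letters, is not a member. By chain type the members were 11 fibrillar genes, 6 type IV genes of the basement membrane and 27 others. The others were 6 type VI genes, 9 fibril-associated genes (FACIT), 3 short chain genes, 4 transmembrane genes, 2 multiplexin genes and 3 further genes.

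RNA was measured by bulk sequencing in C57BL/6 mouse hearts at embryonic day 13.5. Conditional knockouts of the zinc finger transcription factor gene Prdm16 (cKO) were set against littermate controls, labelled WT or Mock. Each genotype had 3 whole hearts, 4 left ventricles taken alone and 4 right ventricles taken alone. The Cre driver and the floxed allele of the cKO are not given in the sources used here, and the labels do not say which libraries came from 1 embryo, so p-values measure the spread between these libraries.

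Collagens are secreted or membrane-bound proteins wound from chains of repeated glycine triplets, and they form much of the extracellular matrix. Fibrillar collagens such as types I, III and V build the fibres of heart valves and of connective tissue, and type IV collagen builds the sheet-like network of basement membranes under endothelium and epicardium and around heart muscle cells. Fibril-associated, beaded-filament, short chain, transmembrane and multiplexin collagens sit on fibres, on cell surfaces or in basement membranes. The type IV genes lie in head-to-head pairs, each pair read outward from a shared stretch.

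Of the 44 members, 35 had an entry in the RefSeq promoter table of GRCm38.p6, with 38 windows of 300 bases. In the annotation the starts of Col4a6 and Col4a5 on chromosome X had 1308 bases between them, those of Col4a4 and Col4a3 on chromosome 1 had 71 bases between them, and Col4a1 and Col4a2 on chromosome 8 shared 22 bases. The bases before the gene start are printed here, on the strand of the gene, for Col4a6, Col4a5 and Col8a1, which passed the test in the most comparisons, and for Col3a1, the member with the highest level. Capitals mark every match on either strand to the CCAAT motif, to GGGCGG, whose match on the opposite strand reads CCGCCC, and to the TATAAA motif. The coordinates are chrX:141474077-141474196, minus strand, for Col4a6, chrX:141475265-141475384, plus strand, for Col4a5, chr16:57754738-57754857, minus strand, for Col8a1, and chr1:45311418-45311537, plus strand, for Col3a1. None of the 4 stretches held a base of an annotated exon.
Col4a6: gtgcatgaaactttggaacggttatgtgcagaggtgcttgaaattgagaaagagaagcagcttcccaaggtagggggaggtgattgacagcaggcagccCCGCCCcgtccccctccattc
Col4a5: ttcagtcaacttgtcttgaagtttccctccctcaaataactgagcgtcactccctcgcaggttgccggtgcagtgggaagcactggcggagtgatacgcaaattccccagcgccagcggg
Col8a1: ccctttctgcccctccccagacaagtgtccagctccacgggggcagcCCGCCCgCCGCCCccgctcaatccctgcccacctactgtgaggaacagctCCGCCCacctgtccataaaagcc
Col3a1: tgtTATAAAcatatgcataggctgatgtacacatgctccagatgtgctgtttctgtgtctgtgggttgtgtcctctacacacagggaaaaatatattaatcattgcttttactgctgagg
The Col8a1 stretch held 3 GGGCGG matches on the opposite strand, the Col4a6 stretch 1 and the Col4a5 stretch none, and the Col3a1 stretch held 1 TATAAA. Over the full windows GGGCGG was found in 60.5% of the 38 collagen windows and in 35.7% of all 32851 windows, CCAAT in 34.2% and 37.4%, and TATAAA in 13.2% and 13.6%. The median GC content was 59.8% in the collagen windows and 52.7% in all windows.

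Whole heart libraries held 38590751 to 62004017 assigned reads and ventricle libraries 14508722 to 22830716, with 0.789 to 1.03% of the reads of a whole heart on collagen genes and 0.55 to 0.83% in a ventricle. Prdm16 stood at 2.796 to 3.467 TPM in cKO whole hearts against 5.17 to 7.92 TPM in controls, 3.04 to 5.75 against 5.37 to 8.69 TPM in left ventricles and 3.19 to 3.88 against 4.66 to 6.66 TPM in right ventricles. It fell in the cKO by 1.04 (whole heart), 1.19 (left ventricle) and 0.75 (right ventricle) on the log2 scale (edgeR adjusted p 0.00192, 6.47e-09 and 2.96e-06), and the ranges overlap in the left ventricle alone. In whole heart control 1, 17807 genes had 10 or more reads, below the 18885 to 19522 of the remaining 5. This library also had the fewest reads of the whole hearts (38590751), and such a gene count falls with depth. Right ventricle control 2 stood apart in the collagens themselves and in mesenchyme markers. Many collagens were high in it. Leaving it out raises their right ventricle cKO over control and their control left over right differences by construction. Counts of collagen genes are therefore given with and without these libraries.

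The collagen RNA of these hearts was led by few genes. TPM is a level per transcript length and library, and 7 members reached a mean of 100 TPM in at least 1 of the 6 groups, 24 reached 10 TPM and 33 reached 1 TPM. Col3a1, the chain of type III fibrils, was highest in 5 of the 6 groups, with 719 ± 28.6 TPM (SD, n = 3) in control whole hearts. Col4a1, the main type IV chain of most basement membranes, was highest in the right ventricles of the cKO, with 322 ± 10.6 TPM (n = 4) beside 265 ± 26.4 TPM of Col3a1. Col1a1 and Col1a2, the chains of type I fibrils, were also among the 5 highest in every group, with Col4a2 in the ventricles and Col18a1 in the whole hearts, and the 5 held 66.4 to 70.7% of the summed collagen TPM. The lowest members, named here because of their values, were Col10a1, Col19a1, Col28a1, Col5a3 and Col6a4, with means of at most 0.104 TPM in any group.

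The summed levels of the classes differed by tissue and genotype. The 11 fibrillar genes summed to 1316, 1293 and 1263 TPM in the 3 control whole hearts and to 1502, 1705 and 1554 TPM in the cKO. In the left ventricle they summed to 683, 623, 837 and 933 TPM in the controls and to 913, 972, 865 and 1012 TPM in the cKO, which overlap. Right ventricle controls had 598, 1140, 588 and 646 TPM and the cKO 609.7, 696, 602 and 731 TPM, and the value of 1140 TPM is control 2. The 6 type IV genes summed to 417 ± 20.0 TPM in control whole hearts and 509 ± 10.6 TPM in the cKO (n = 3). Their sum was 400.2 ± 16.9 TPM and 577 ± 15.3 TPM in the left ventricle, and 417.5 ± 15.8 TPM and 515 ± 21.9 TPM in the right ventricle (n = 4). In TPM the type IV sum of every cKO library was above that of every control library of its tissue. The left ventricle ratio of cKO to control means was 1.44 in TPM. On TMM-scaled CPM it was lower by more than its spread, and no other class ratio moved that far. In bulk tissue fewer cells of a type and less RNA per cell cannot be told apart.

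**Figure D1:**
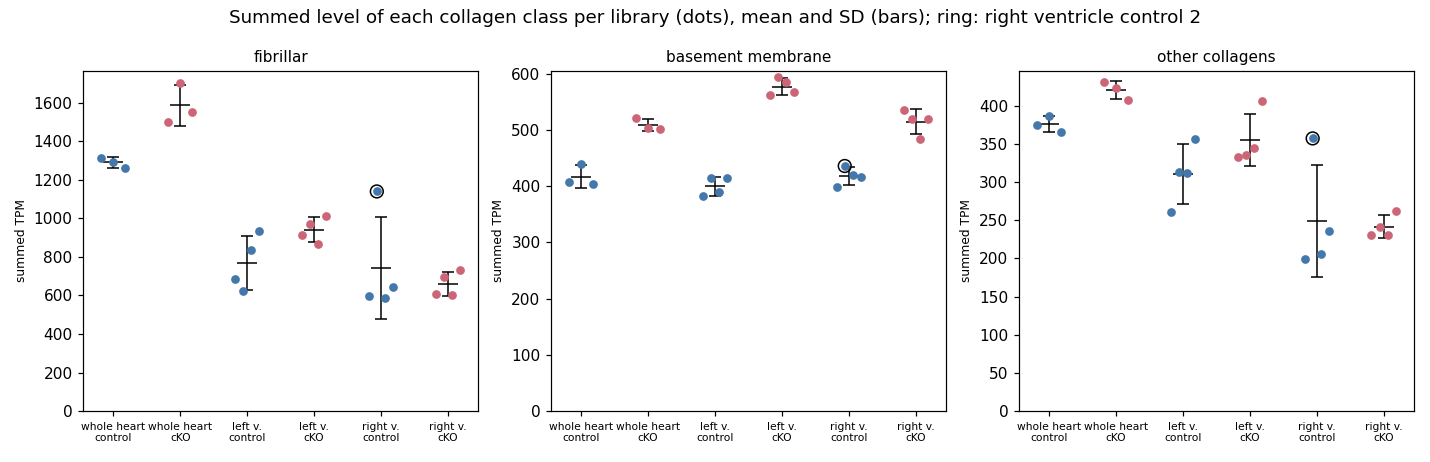
Summed TPM of the fibrillar, type IV (basement membrane) and other collagen genes in each of the 22 libraries (dots; blue control, red cKO), with the mean and SD of each group as bars and right ventricle control 2 ringed. Type IV sums of cKO and control libraries do not overlap in any tissue, while the ringed library lies at 1140 TPM in the fibrillar panel, above the other right ventricle libraries.

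More collagen genes were called higher than lower in the cKO of each tissue, and the counts of calls were highest in the left ventricle. By direction alone this does not hold on the right, where 17 of 38 tested members had a fold change above 0. A gene was called when its adjusted p was under 0.05 in edgeR's quasi-likelihood test with Benjamini-Hochberg adjustment over all genes tested. In the left ventricle 14 of 38 tested members rose and 1 fell, against 25.6% of all 16448 genes called in either direction (12.3% higher, 13.4% lower). In the right ventricle 6 of 38 rose and none fell, against 10.3% of all genes (6.12% higher, 4.19% lower). In the whole heart 4 of 40 rose and none fell, against 4.03% of all 19160 genes (1.96% higher, 2.07% lower). The median log2 fold change of the tested members was 0.24 in the left ventricle, -0.01 in the right ventricle and 0.17 in the whole heart, beside all-gene medians of -0.001, -0.005 and 0.015. Col4a2, Col4a5, Col4a6 and Col8a1 were called in all 3 tissues, Col4a1 and Col13a1 in both ventricles, and 25 of the 40 tested members were called in none of the 3.

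Both doubted libraries moved these counts. Without right ventricle control 2, 18 members rose and 2 fell in the left ventricle (29.2% of all genes called, 14.0% higher and 15.2% lower) and 8 rose in the right ventricle (14.5% of all genes called, 7.41% higher and 7.12% lower). The median of the right ventricle was then 0.12. Without whole heart control 1, 8 members rose and 1 fell in the whole heart (6.54% of all genes called, 3.28% higher and 3.25% lower). The whole heart count was 9 without control 1, 6 without control 2, 1 without control 3, 1 without cKO 1, 0 without cKO 2 and 1 without cKO 3, so leaving out any of these except control 2 moved it by more than 1.5 times.

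**Figure D2:**
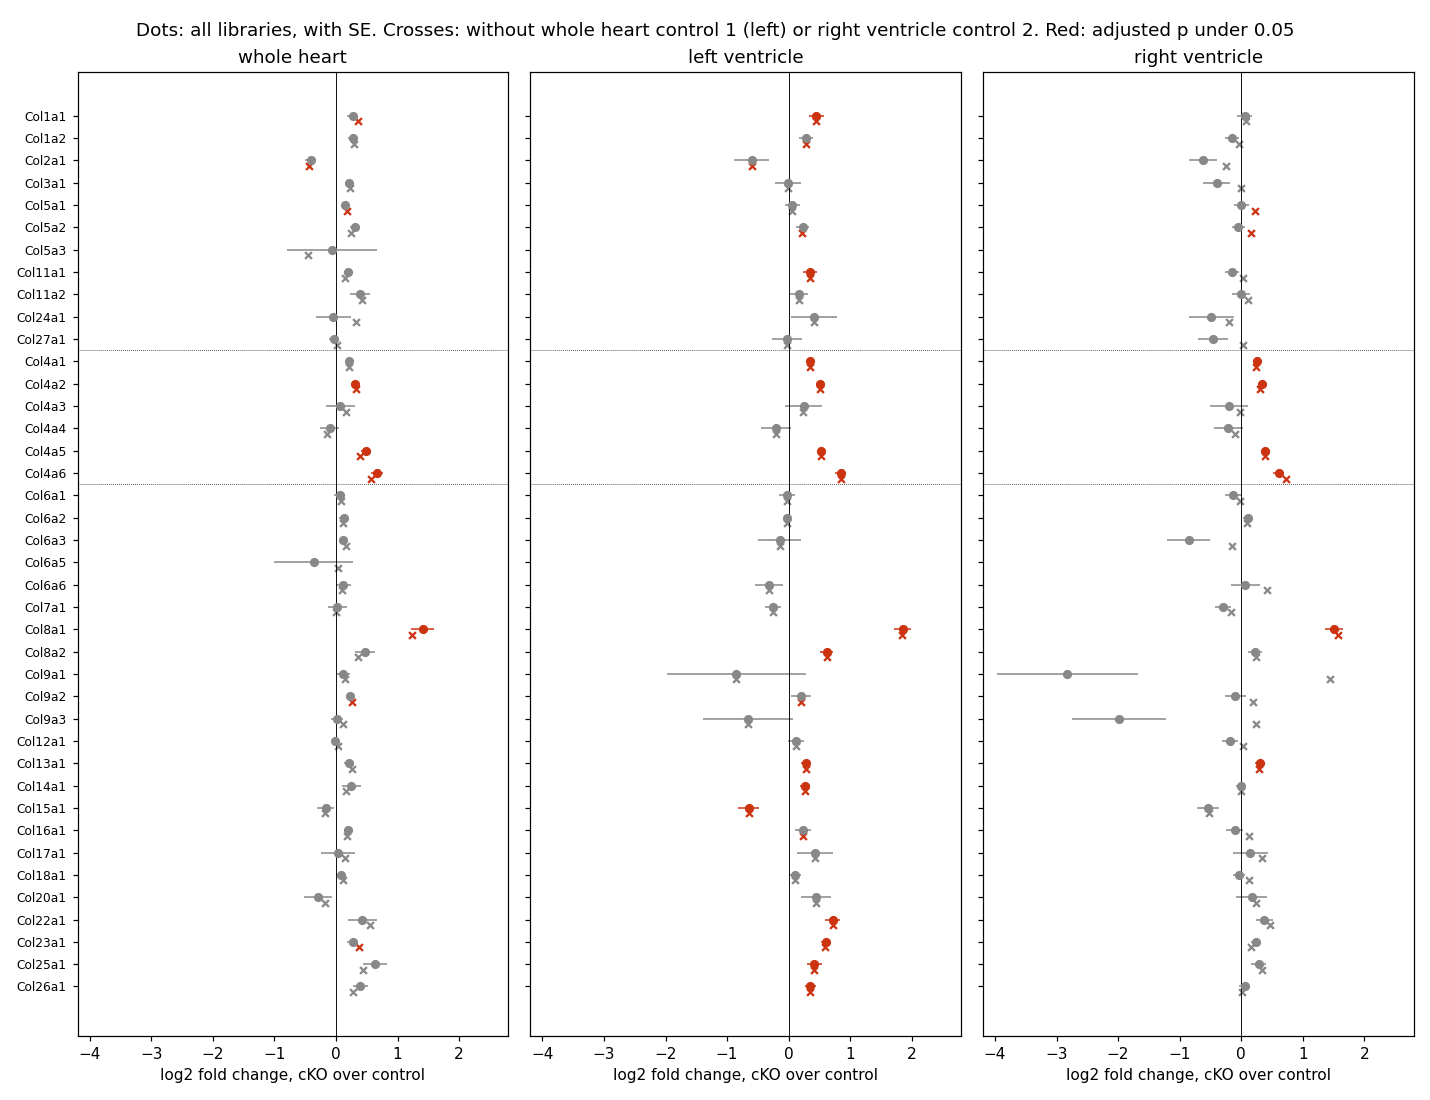
Log2 fold change, cKO over control, of each tested collagen gene in the whole heart, left ventricle and right ventricle (dots with SE), with crosses for the fits without whole heart control 1 or right ventricle control 2, and red for an adjusted p under 0.05. Dotted lines separate fibrillar, type IV and other genes. Col8a1 and the type IV genes Col4a2, Col4a5 and Col4a6 are red in all 3 panels, and the dots of Col3a1, Col6a3, Col9a1 and Col9a3 in the right ventricle lie far left of their crosses.

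Col4a1, Col4a2, Col4a5 and Col4a6 carried nearly all of the type IV RNA, and all 4 rose in both ventricles. Col4a1 and Col4a2 encode the chains of the common type IV trimer. Col4a1 stood at 330, 330, 350 and 319 TPM in the left ventricles of the cKO and at 235, 251, 235 and 259 TPM in their controls. On the right it stood at 329, 326, 306 and 326 TPM against 257, 278, 275 and 267 TPM. The groups do not overlap on either side, and the log2 fold change was 0.35 ± 0.04 (SE; edgeR adjusted p 1.45e-05) on the left and 0.26 ± 0.04 (adjusted p 0.000649) on the right. In whole hearts the cKO range of 273 to 298 TPM also lay above the control range of 236 to 266 TPM, but the difference of 0.21 ± 0.05 was not called (edgeR adjusted p 0.0649). It was called by DESeq2 (adjusted p 0.00175), but not on length-scaled counts (0.11, edgeR adjusted p 0.569) or on log2(TPM + 1) (0.17, limma adjusted p 0.457).

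Col4a2 rose in all 3 tissues. It stood at 137, 165, 139 and 155 TPM in the left ventricles of the cKO and at 87.8, 100.5, 93.8 and 95.2 TPM in their controls, with no overlap. Its log2 fold change was 0.51 ± 0.05 in the left ventricle (edgeR adjusted p 6.5e-07), 0.33 ± 0.05 in the right (adjusted p 0.000153) and 0.31 ± 0.05 in the whole heart (adjusted p 0.0119). Col4a1 and Col4a2 overlap by 22 bases on opposite strands. The library kit keeps strand, but whether the quantification used it is not given in the sources used here, so reads from the shared bases may be split between both genes.

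Col4a5 and Col4a6, neighbours on the X chromosome, encode the chains of the type IV trimer found in smooth muscle and some epithelial basement membranes. Col4a5 stood at 74.9, 78.8, 76.2 and 73.9 TPM in the left ventricles of the cKO against 49.8, 52.0, 49.5 and 49.9 TPM. Col4a6 stood at 19.7, 20.1, 19.2 and 18.5 TPM there against 9.93, 10.4, 9.92 and 10.3 TPM. Replicates of either gene lay close together and the groups were far apart on this side. The log2 fold changes were 0.52 ± 0.05 (edgeR adjusted p 2.36e-06) for Col4a5 and 0.84 ± 0.09 (adjusted p 2.35e-06) for Col4a6.

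The same pair rose in the right ventricle and in the whole heart. Col4a5 rose by 0.38 ± 0.05 in the right ventricle (edgeR adjusted p 0.000157) and by 0.49 ± 0.09 in the whole heart (adjusted p 0.0229). Col4a6 rose by 0.61 ± 0.09 (adjusted p 0.000171) and by 0.67 ± 0.09 (adjusted p 0.00935). In the right ventricle the control range of Col4a6, 7.54 to 11.5 TPM, just reached the cKO range of 11.4 to 15.8 TPM, and its highest control was control 2. The whole heart calls of Col4a2, Col4a5 and Col4a6 were each lost when any 1 of the 3 cKO whole hearts was left out, with edgeR adjusted p of 0.0507 to 0.115, and those of Col4a5 and Col4a6 also without control 3 (0.0976 and 0.0519). All 3 calls also ended with the replicate block and on log2(TPM + 1) (adjusted p 0.173, 0.171 and 0.0782), and those of Col4a2 and Col4a5 on length-scaled counts. The block joins whole hearts by their number, and the labels do not say whether same-numbered hearts belong together.

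The remaining pair, Col4a3 and Col4a4, encodes chains of the mature kidney, lung and inner ear basement membranes. Both were low, with group means of 0.217 to 0.455 TPM for Col4a3 and 0.142 to 0.457 TPM for Col4a4, and both overlapped between genotypes in every tissue. Neither was called in any tissue, with log2 fold changes of -0.20 to 0.24 and -0.21 to -0.10.

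**Figure D3:**
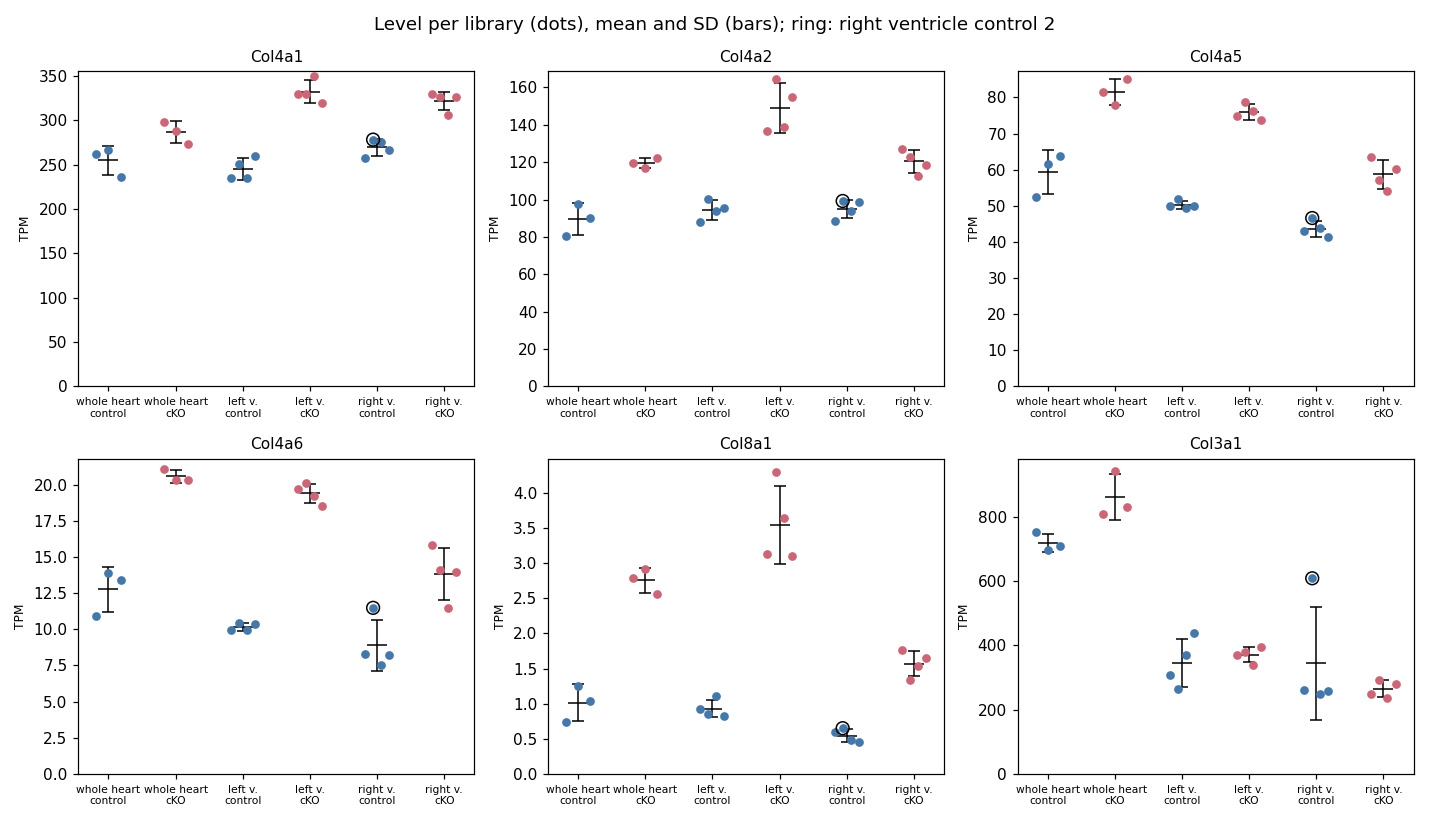
TPM of Col4a1, Col4a2, Col4a5, Col4a6, Col8a1 and Col3a1 in each library (dots; blue control, red cKO; axes from 0), with the mean and SD of each group as bars and right ventricle control 2 ringed. The left ventricles of the cKO lie above all their controls for Col4a1, Col4a2, Col4a5 and Col4a6, and Col4a6 goes from 10.2 to 19.4 TPM there on average.

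The ratio of paired chains was compared as a further measure, with an exact 2-sided permutation test over libraries and 15 tests in all. The Col4a5 to Col4a6 ratio of TPM was 3.81, 3.91, 3.97 and 3.98 in the left ventricles of the cKO against 5.02, 4.98, 4.99 and 4.83 in the controls. The groups do not overlap (exact permutation p 0.0286, the smallest that 4 against 4 allows), and the difference missed the threshold after Benjamini-Hochberg adjustment over the 15 tests (adjusted p 0.1875). The Col4a1 to Col4a2 ratio was 2.25 ± 0.253 in the cKO and 2.60 ± 0.114 in the controls (SD, n = 4; exact permutation adjusted p 0.1875). In the right ventricle the Col1a1 to Col1a2 ratio was 1.61 ± 0.0921 in the cKO and 1.38 ± 0.121 in the controls, again with no overlap (exact permutation p 0.0286, adjusted p 0.1875). Whole hearts cannot go below p 0.1 in this test, and with these group sizes the adjustment could hardly be passed, so the adjusted values say little about the ratios.

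Among all members Col8a1 had the largest log2 fold change of those called in each tissue. It encodes a short chain of the type VIII network, made by endothelium and smooth muscle. Col8a1 stood at 3.13, 4.29, 3.64 and 3.09 TPM in the left ventricles of the cKO against 0.924, 0.854, 1.10 and 0.831 TPM. In the right ventricle the values were 1.76, 1.33, 1.54 and 1.65 TPM against 0.597, 0.652, 0.479 and 0.458 TPM. In the whole heart they were 2.79, 2.91 and 2.56 TPM against 0.745, 1.26 and 1.04 TPM. No control library reached any cKO library of its tissue, although the level is low beside type IV collagen. The log2 fold changes were 1.85 ± 0.13 on the left (edgeR adjusted p 4.72e-08), 1.503 ± 0.14 on the right (adjusted p 3.13e-06) and 1.41 ± 0.19 in the whole heart (adjusted p 0.0082). The whole heart call was lost without cKO 1, cKO 2 or control 3 (adjusted p 0.0528, 0.0582 and 0.0506). Col8a2, the partner chain, rose in the left ventricle by 0.62 ± 0.11 (edgeR adjusted p 0.000306). Its differences of 0.22 in the right ventricle and 0.47 in the whole heart were not called.

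With all libraries edgeR called 2 of 10 fibrillar genes in the left ventricle, both higher, against 25.6% of all genes called there (12.3% higher), and none in the other tissues. No fibrillar gene was called in the test of the difference between the ventricles. Without right ventricle control 2, Col5a1 (0.22, edgeR adjusted p 0.0166) and Col5a2 (0.15, adjusted p 0.0124), chains of type V fibrils, were called in the right ventricle. Control 2 had the highest level of both among the right ventricle controls, at 68.0 and 78.7 TPM. The direction of these 2 shifts was thus set by leaving it out. Without whole heart control 1, Col1a1 (0.35, edgeR adjusted p 0.0401) and Col5a1 (0.19, adjusted p 0.0485) were called in the whole heart. Col1a1 stood at 227, 274, 231 and 275 TPM in the left ventricles of the cKO against 148, 138, 192 and 209 TPM in the controls. Its log2 fold change of 0.45 ± 0.12 was called (edgeR adjusted p 0.0119), and the groups do not overlap. Col11a1, a chain that nucleates thin fibrils in cartilage and valves, stood at 5.61, 4.96, 5.39 and 5.23 TPM against 3.25, 3.15, 3.99 and 4.93 TPM. The groups just fail to overlap, and the difference of 0.35 ± 0.11 (edgeR adjusted p 0.0326) was lost without cKO 2, cKO 3, cKO 4, control 1 or control 2 and on length-scaled counts. Col1a2 had 165, 171, 153 and 189 TPM against 107, 103, 139 and 156 TPM, a difference of 0.28 ± 0.12 that was not called with all libraries (edgeR adjusted p 0.091) and was called without right ventricle control 2 (adjusted p 0.0444).

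Col3a1, the highest fibrillar gene, was not called in any tissue. Its log2 fold change was -0.01 ± 0.22 in the left ventricle, with cKO libraries at 339 to 394 TPM inside the control range of 265 to 437 TPM. In the whole heart it was 0.21 ± 0.05 (edgeR adjusted p 0.0721), with 809, 943 and 831 TPM in the cKO above 751, 697 and 709 TPM in the controls. In the right ventricle it was -0.40 ± 0.22 with all libraries and 0.00 without control 2. None of the 11 fibrillar genes tested in the whole heart was called by edgeR. There 8 of them had an unadjusted p under 0.05 (7 higher, Col2a1 lower), and DESeq2 and limma voom each called 5 higher and 1 lower. The shares of all genes at that unadjusted level and under DESeq2 and voom are not given here. These counts therefore cannot be set apart from a higher share of calls over all genes. None of 10 was called by edgeR, DESeq2 or voom in the right ventricle, where 1 had an unadjusted p under 0.05 with a lower level. The fibrillar median there was -0.15 with all libraries and 0.03 without control 2.

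Col2a1, the fibril chain of cartilage, had a fold change below 0 in each tissue, as did Col27a1 (-0.04, -0.03 and -0.46 in whole heart, left and right ventricle, none called). The log2 differences of Col2a1 were -0.41 ± 0.09 in the whole heart (edgeR adjusted p 0.0538), -0.60 ± 0.28 in the left ventricle and -0.62 ± 0.22 in the right ventricle, none of them called. Without whole heart control 1 the first was -0.44 (adjusted p 0.0347), and without right ventricle control 2 the other values were -0.60 (adjusted p 0.0116) and -0.25 (adjusted p 0.25).

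Of the 27 other collagens, 22 were tested in the ventricles. Those called in the left ventricle were 3 of 4 transmembrane genes, 2 of 8 fibril-associated genes, both short chain genes tested, 1 of 2 multiplexin genes and Col26a1, beside 25.6% of all genes called there. None of the 4 type VI genes tested there was called by edgeR, and none had an unadjusted p under 0.05. Col23a1, a transmembrane collagen, stood at 20.3, 23.4, 20.2 and 20.9 TPM in the left ventricles of the cKO against 13.2, 14.8, 12.8 and 13.2 TPM. The groups do not overlap and the gene rose by 0.60 ± 0.07 (edgeR adjusted p 1.52e-05).

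Col13a1, a transmembrane collagen known from the neuromuscular junction, rose by 0.28 ± 0.08 on the left (edgeR adjusted p 0.0125) and 0.30 ± 0.08 on the right (adjusted p 0.0206). It stood at 12.7 to 15.7 TPM in the left ventricles of the cKO against 10.5 to 12.1 TPM. The right ventricle call was lost without cKO 2, cKO 3 or control 4, on length-scaled counts and on log2(TPM + 1) (adjusted p 0.103). Col25a1, known for its part in motor nerve ingrowth, rose by 0.42 ± 0.12 in the left ventricle (adjusted p 0.0189). Col14a1, a fibril-associated chain, rose by 0.26 ± 0.08 (adjusted p 0.0275), and Col22a1, known from muscle-tendon junctions, by 0.72 ± 0.12 (adjusted p 0.000317) from 0.336 to 0.608 TPM. These 3 were not called in the right ventricle or the whole heart. The left ventricle call was lost for Col25a1 without cKO 3 or control 4, on length-scaled counts and in 1 fit of all 22 libraries. It was lost for Col14a1 without cKO 4, control 1, control 2 or control 4 and in 1 fit of all 22 libraries (adjusted p 0.114), and for Col22a1 on length-scaled counts (adjusted p 0.0793).

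Col15a1, a multiplexin of vessel and muscle basement membranes, was the called member that fell. In TPM, the scale used for the other members, its left ventricles overlapped. They stood at 4.80, 4.18, 5.31 and 13.8 TPM in the cKO against 5.46, 12.7, 8.81 and 12.1 TPM. Col15a1 is also given in TMM-scaled CPM, a count scale like that of the test, with factors from all 22 libraries. It stood at 16.3, 20.1, 17.7 and 26.9 CPM in the left ventricles of the cKO against 24.6, 26.9, 36.4 and 38.3 CPM. The highest cKO library lies at the level of the second-lowest control, and the gene fell by 0.65 on the log2 scale (SE 0.17; edgeR adjusted p 0.0101). In the right ventricle it had 12.1 to 20.4 CPM against 21.4 to 26.8 CPM, and the difference of -0.54 ± 0.18 was not called (adjusted p 0.0652). Its call on the left ended on length-scaled counts (-0.54, adjusted p 0.441) and on log2(TPM + 1). Col26a1 rose by 0.35 ± 0.09 on the left (edgeR adjusted p 0.00643), with 56.1 to 63.4 CPM against 40.2 to 55.5 CPM. This call also ended on both of those scales (0.12 and 0.21). In TPM its left ventricles overlapped widely, at 27.2 to 70.1 in the cKO against 15.8 to 65.0 in the controls. Col18a1, the other multiplexin and the source of endostatin, was not called in any tissue, with 0.10, -0.03 and 0.08 in the left ventricle, right ventricle and whole heart.

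Right ventricle control 2 differed from the other 3 right ventricle controls in many collagens. Col3a1 stood at 609 TPM against 248 to 262 TPM, and Col6a3, a type VI chain, at 24.1 TPM against 5.15 to 9.53 TPM. The cartilage-type genes Col9a1 and Col9a3 stood at 14.9 and 20.2 TPM against 0.0687 to 0.335 TPM and 0.529 to 1.79 TPM. The type IV genes had a sum of 436 TPM against 397.6 to 421 TPM. The 10 cushion and fibroblast mesenchyme markers summed to 643.5 TPM in this library against 248 to 276 TPM in the others, with Postn at 266 TPM against 42.0 to 47.6 TPM. The 8 chondrocyte and tendon markers summed to 38.2 TPM against 8.21 to 10.5 TPM. The part of these markers in the collagen values was not tested.

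**Figure D4:**
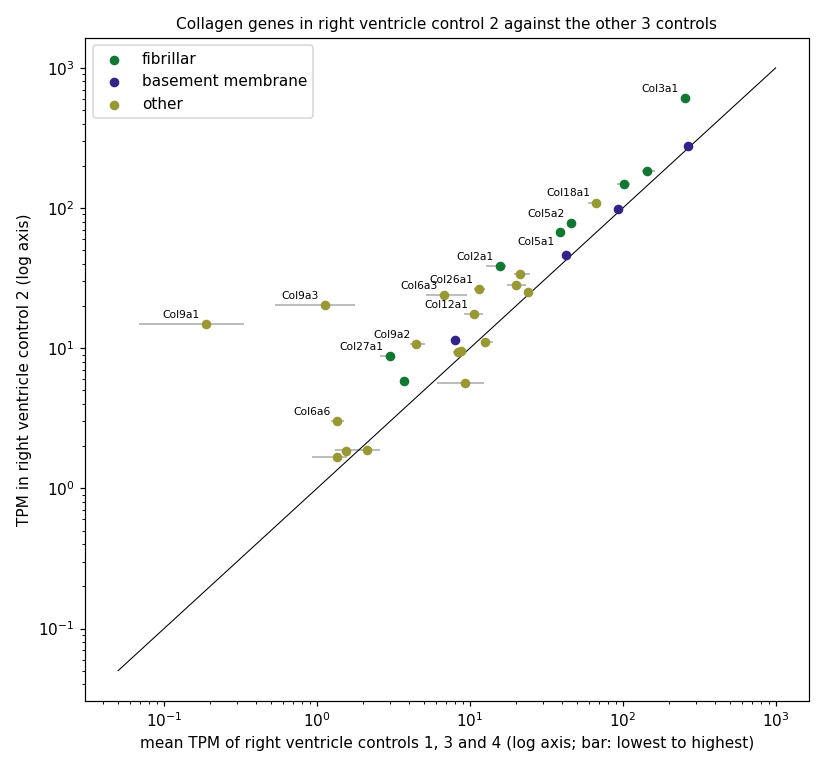
TPM of the collagen genes at 1 TPM or more on either axis, in right ventricle control 2 (vertical) against the mean of controls 1, 3 and 4 (horizontal, bars from lowest to highest), both axes log, with the line of equality. Col9a1, Col9a3, Col6a3 and Col3a1 lie well above the line, and Col4a1, Col4a2 and Col4a5 lie near it.

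Whether the cKO effect differed between the ventricles was tested in the same fit, and it shares its libraries with the left and the right comparison. No collagen gene was called by edgeR among 38 tested, against 1.43% of all genes (0.462% higher, 0.973% lower). At an unadjusted p under 0.05 there were 8, all with a higher fold change on the left. The share of all genes at that unadjusted level is not given here. The median difference was 0.28 for the members and -0.001 for all genes with all libraries, and 0.08 for the members without right ventricle control 2. The fibrillar median moved from 0.39 to 0.06 when that library was left out. Col23a1 had a difference of 0.36 ± 0.10 (edgeR adjusted p 0.1). It was called without right ventricle control 2 (0.43, adjusted p 0.015), with 2.15% of all genes called (0.733% higher, 1.42% lower), and by DESeq2 (0.37, adjusted p 0.0299) and limma voom (0.41, adjusted p 0.0237) with all libraries. For Col8a1 the difference was 0.35 ± 0.20 and for Col4a6 0.23 ± 0.12, with edgeR adjusted p of 0.47 and 0.428.

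Left and right ventricles were then compared within each genotype. In the controls 6 of 38 members were higher and 2 lower on the left, against 21.0% of all genes called (9.02% higher, 12.0% lower). In the cKO 18 were higher and 1 lower, against 32.8% of all genes (14.5% higher, 18.3% lower). Scaling by library totals in place of TMM turned the split of all called genes from 1483 higher and 1979 lower to 2290 and 1294 in the controls, and from 2387 and 3011 to 3931 and 2004 in the cKO, with collagens at 9 higher and 1 lower, and 21 and 1. Without right ventricle control 2 the control comparison gave 17 higher and 2 lower (26.9% of all genes called, 12.2% higher and 14.8% lower) and the cKO comparison 21 higher and 1 lower (36.1% of all genes called, 16.7% higher and 19.4% lower), and without right ventricle control 4 the control comparison gave 4 calls. Col2a1 had the largest difference among the called members, with 2.50, 3.03, 2.38 and 3.65 TPM in the left and 17.1, 38.5, 12.7 and 17.2 TPM in the right control ventricles. The left ventricle was lower by a log2 difference of -2.95 ± 0.25 in the controls (edgeR adjusted p 6.36e-07) and -2.93 ± 0.26 in the cKO (adjusted p 6.07e-07), and the groups are far apart.

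Several low to middling collagens were higher on the left in both genotypes. Col8a1 was higher by 0.70 ± 0.15 in the controls (edgeR adjusted p 0.00318) and by 1.05 ± 0.13 in the cKO (adjusted p 1.23e-05). Col26a1 was higher by 0.79 ± 0.09 (adjusted p 1.75e-05) and 1.09 ± 0.09 (adjusted p 2.71e-07), and Col22a1 by 0.84 ± 0.13 (adjusted p 0.000298) and 1.18 ± 0.13 (adjusted p 3.43e-06). Both calls of Col26a1 and the control call of Col22a1 ended on length-scaled counts and on log2(TPM + 1), and the cKO call of Col22a1 ended on length-scaled counts (adjusted p 0.0576). The fibrillar genes called higher on the left in the cKO were Col1a1 (0.41), Col1a2 (0.50), Col5a2 (0.40) and Col11a1 (0.34). The call of Col11a1 was lost without 7 of the 8 cKO ventricles (all but left ventricle cKO 1) and on length-scaled counts (adjusted p 0.112), and that of Col1a1 without right ventricle cKO 1. In the controls these 4 had differences of 0.02, 0.07, 0.13 and -0.16 with all libraries and 0.03, 0.18, 0.33 and 0.02 without control 2, of which Col5a2 was called without it.

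**Figure D5:**
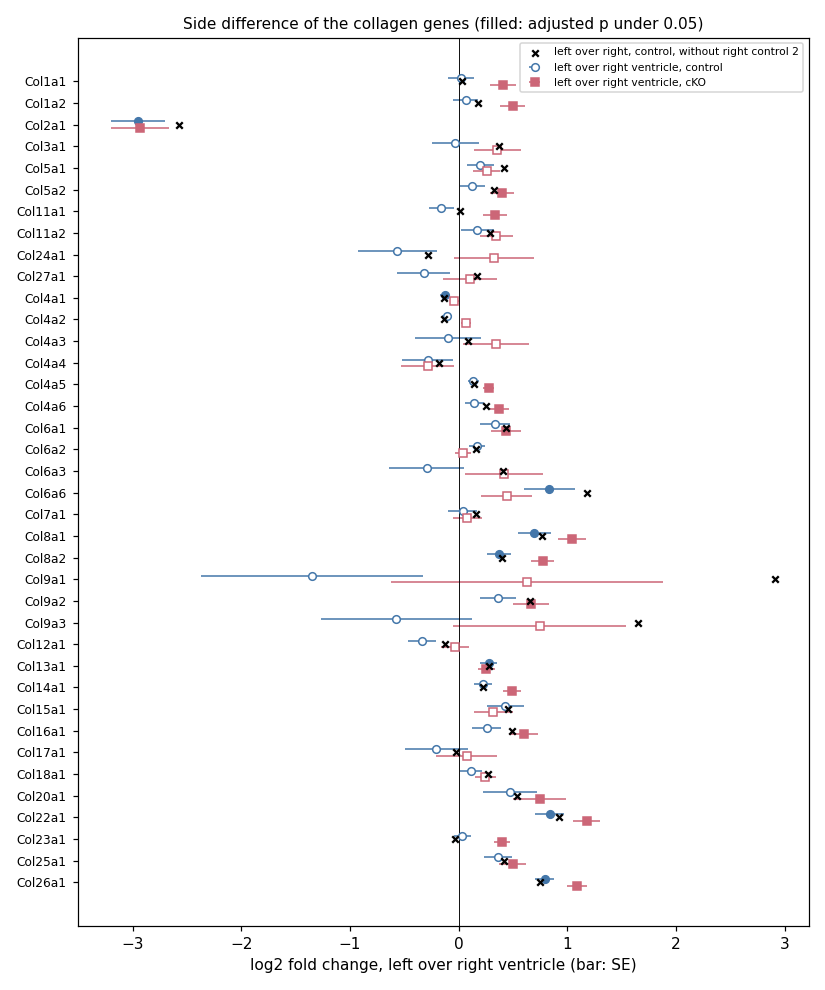
Log2 difference, left over right ventricle, of each tested collagen gene in controls (blue circles) and in cKO hearts (red squares), with SE as bars, filled where the adjusted p was under 0.05, and crosses for controls without right ventricle control 2. Col2a1 lies near -2.9 in both genotypes, and Col8a1, Col22a1 and Col26a1 lie above 0 in both.

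Control whole hearts, which hold valves, outflow tract and atria beside the ventricles, were compared with the mean of both control ventricles. Of 38 members 21 were higher in the whole heart and 2 lower, against 43.6% of all 17560 genes called (22.3% higher, 21.3% lower). Without whole heart control 1 the members were again 21 higher and 2 lower (42.3% of all genes called, 21.7% higher and 20.6% lower), and without right ventricle control 2 they were 22 higher and 3 lower (47.0%, 23.8% higher and 23.2% lower). With library totals the collagens were 22 higher and 0 lower, and all called genes went from 3914 higher and 3742 lower to 5471 and 2422. Library depth differs with tissue here and cannot be told apart from it. Of 10 fibrillar genes, 8 were higher. Col3a1 was higher by 0.84 ± 0.18 (edgeR adjusted p 0.000761), with 697 to 751 TPM in the whole hearts against 265 to 437 TPM in the left ventricles and 248 to 609 TPM in the right. Col2a1 was higher by 1.13 ± 0.19, Col24a1 by 2.70 ± 0.27 and Col6a3 by 1.40 ± 0.26. Col12a1, a fibril-associated chain of dense connective tissue, was higher by 0.997 ± 0.104 (edgeR adjusted p 2.61e-07) but by 0.12 on length-scaled counts (adjusted p 0.374).

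Among the type IV genes Col4a1 had a difference of -0.05 ± 0.04 and was not called, and Col4a2 was lower, at -0.16 ± 0.04 (edgeR adjusted p 0.0055). Col4a6 was higher by 0.27 ± 0.08 (adjusted p 0.0123). The Col4a2 call ended with library totals, on log2(TPM + 1) (adjusted p 0.307) and without whole heart control 3, and the Col4a6 call on length-scaled counts (adjusted p 0.507) and without whole heart control 2. The cushion and fibroblast markers, of which 8 of 10 were higher in the whole heart, summed to 919.9 to 1007 TPM there against 265 to 425 TPM in the left and 248 to 643.5 TPM in the right control ventricles. Their part in these differences was not tested.

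Genes that act on collagen were counted by role. Of 19 genes for chain modification and folding, 14 rose in the left ventricle, 10 in the right and 4 in the whole heart, and none fell. The shares of all genes called higher were 12.3%, 6.12% and 1.96%, and the medians of the list were 0.32, 0.185 and 0.176. P3h1, a prolyl 3-hydroxylase of procollagen, stood at 63.0, 63.1, 62.6 and 77.4 TPM in the left ventricles of the cKO against 38.3, 34.7, 35.6 and 35.4 TPM. It rose by 0.71 ± 0.05 there (edgeR adjusted p 2.81e-08), 0.46 ± 0.05 in the right ventricle (adjusted p 9.8e-06) and 0.40 ± 0.06 in the whole heart (adjusted p 0.0153). Fkbp14, a folding enzyme of the endoplasmic reticulum, rose by 0.53, 0.29 and 0.49 in the same order. Colgalt1, which puts galactose on hydroxylysine, rose by 0.38 on the left and 0.22 on the right, and Crtap, the partner of P3h1, by 0.25 on the right.

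Of 12 genes for export and processing tested in the ventricles, 5 rose on the left (41.7%, against 12.3% of all genes called higher) and 3 on the right (25% against 6.12%), with medians of 0.21 and 0.14. Among them were Furin, a proprotein protease, which rose by 0.46 and 0.24, and Sec23a, a coat protein of procollagen export, which rose by 0.28 and 0.17. Pcolce, an enhancer of C-propeptide removal, rose by 0.21 on the right. Of 5 crosslinking genes tested, Loxl3 rose on the left by 0.40, and Pxdn, the peroxidasin of type IV sulfilimine bonds, fell on the right by 0.37. That is 20% of the list called on each side, against 25.6% of all genes on the left and 10.3% on the right. No crosslinking gene of 6 was called by edgeR in the whole heart, where 1 had an unadjusted p under 0.05.

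Of 18 basement membrane partners, 9 rose and 4 fell in the left ventricle (72.2% called, against 25.6% of all genes), 5 rose and 3 fell in the right (44.4% against 10.3%), and 3 rose and 3 fell in the whole heart (33.3% against 4.03%). Their median log2 fold changes were 0.18, 0.08 and 0.13 in that order. Lama1, the alpha 1 chain of laminin, rose by 1.79 ± 0.15 in the left ventricle (edgeR adjusted p 1.89e-07), from 0.446 to 1.57 TPM. Npnt, the integrin ligand nephronectin, rose by 0.60, 0.80 and 0.72 in left ventricle, right ventricle and whole heart, and Nid2, which links laminin to type IV collagen, rose by 0.32 and 0.29 in the ventricles. Lama4, the laminin alpha chain of vessels, fell by 0.29 in the right ventricle on the log2 scale (adjusted p 2.54e-05). Of 14 fibril partners 4 rose on the left (28.6%) and 2 on the right (14.3%), against 12.3% and 6.12% of all genes called higher, led on both sides by Sparc, a collagen-binding glycoprotein, with 0.36 and 0.23. Of 10 collagen receptors, Itgb1 and Itga1 rose on the left by 0.18 and 0.28, and Ddr1 on the right by 0.19. These 20% and 10% of the receptors called lie near the 25.6% and 10.3% of all genes. Of 9 degradation genes, Reck, Timp2 and Mmp15 rose on the left by 0.47, 0.29 and 0.21, and Timp3 fell on the right by 0.20, with 33.3% and 11.1% called, also near the share of all genes.

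Markers of cell types were summed in the same libraries. Beside their counts of calls, 12.3% of all genes were called higher in the left ventricle, 6.12% in the right and 1.96% in the whole heart. The shares called lower were 13.4%, 4.19% and 2.07%. The 10 cushion and fibroblast mesenchyme markers overlapped between genotypes in the left ventricle (275.5 to 362 TPM in the cKO against 265 to 425 TPM, 1 called higher and 1 lower, median log2 fold change -0.23). They also overlapped in the right ventricle, at 229 to 329 against 248 to 643.5 TPM (1 called lower, median -0.77), where the highest control is control 2. In the whole heart, where the fibrillar sums did not overlap either, they lay apart at 1049 to 1166 against 919.9 to 1007 TPM. None was called there by edgeR, and 4 had an unadjusted p under 0.05, all higher. The share of all genes at that level is not given here. The 12 endothelial and endocardial markers summed to 960.1 to 1067 TPM in the left ventricles of the cKO against 777 to 812 TPM, with 9 called higher. They summed to 835 to 878 TPM against 733 to 797 TPM in the right ventricle (4 called higher) and to 809.8 to 907 TPM against 743.5 to 768 TPM in the whole heart (2 called higher). In each tissue the cKO sums lay above the control sums with no overlap, as the type IV sums did. The 10 epicardial markers summed to 226 to 253.5 TPM against 171 to 189.5 TPM in the left ventricle, with 6 called higher, and overlapped in the right ventricle (142 to 183 against 133 to 191 TPM), with 1 called higher. In the whole heart they also overlapped, at 180 to 210 against 170 to 188 TPM, with none called. The 10 cardiomyocyte markers summed to 34920 to 40670 TPM against 44960 to 47160 TPM in the left ventricle, with 8 lower and 1 higher. Their sums overlapped in the right ventricle (1 called higher, none lower). In the whole heart they were 23810 to 24710 TPM against 26840 to 28150 TPM, with 4 called lower and 1 higher. The 9 mural markers summed to 661 to 816 TPM against 748.5 to 857 TPM in the left ventricle. Their sums were 1339 to 1710 against 1569 to 1834 TPM in the right and 1190 to 1361 against 1219 to 1325 TPM in the whole heart. The 9 erythroid markers summed to 37100 to 92570 TPM against 27480 to 51910 TPM in the left ventricle and to 31980 to 61060 TPM against 13780 to 32780 TPM in the right ventricle. In the whole heart they were 24730 to 44100 against 28370 to 34510 TPM. The mural and erythroid ranges overlap between genotypes in every tissue. Of the 9 erythroid markers, 1 was called higher on the left, 5 on the right and none in the whole heart, and none was called lower. Their median log2 fold changes were 0.70, 1 and 0.06 in that order. Of the mural markers, 2 were called higher and 2 lower on the left. On the right 1 was called higher and 2 lower, and in the whole heart 1 was called lower. No marker of the endothelial, epicardial, cardiomyocyte, mural or erythroid lists was at 0 in every library of a group, and the part of any of them in the collagen results was not tested.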

How the data were processed

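Whole hearts and ventricles gave 22 libraries, made with a stranded kit from RNA of RIN 6.1 to 10 per the labels' protocols; the strand setting of the quantification is not given in the sources used here. The authors deposited estimated counts and TPM per transcript for each library, per the labels. The submitters' processing notes name Salmon 1.2.1, DESeq2 1.22.2 and the builds mm10 and GRCm38.p6. Both deposited units, estimated counts and TPM, were summed per gene through GENCODE M21 by transcript ID without version (140137 of 140658 matched; at most 0.204% of reads unmatched), and the counts were rounded. Members and lists were chosen with earlier results of these data known.

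Tests used edgeR 4.0.16 (R 4.3.3) quasi-likelihood fits with TMM scaling and Benjamini-Hochberg adjustment over all genes that passed edgeR's low count filter; an SE was taken from the size of the fold change and the square root of its F statistic. Whole hearts and the 16 ventricles were fitted as separate sets, and whole heart against ventricles in a fit of all 22 libraries. Named members were called in any of the 7 comparisons or reached a mean of 1 TPM in a group; pathway genes were up to 3 with the smallest p per list and cKO comparison. The lowest members, outside this rule, were named after their values were seen. In simulated data 88% of genes changed by a log2 of 1 were called in the left ventricle, 86% in the right and 80% in the whole heart; for a log2 of 0.5 these were 66%, 68% and 38%. Marker lists covered cushion mesenchyme, epicardium, endothelium, mural cells, cardiomyocytes, chondrocytes and tendon, neural crest and Schwann cells (6 markers, none called in a cKO comparison) and erythroid cells. Replicates differed by more than sampling noise. Same-numbered libraries of the left and right cKO ventricles deviated together weakly (correlations 0.135 to 0.316 in 4 of 4 pairs), and 3 of the 4 matched best with their own number. The labels do not pair them, a shared embryo and shared handling cannot be told apart here, and the tests treat all libraries as independent. The other combinations checked were cKO with control in each tissue and left with right control ventricles. In each of these at most 2 same-numbered pairs had a correlation over 0.1. Alternatives were other scalings (RLE, library totals), other filters, DESeq2 1.42.0, limma 3.58.1 (voom; log2(TPM + 1)), length-scaled counts, 1 fit of all libraries, the replicate block and leaving out each library.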

Additional observations from a re-analysis of the deposited data

Results flagged for a closer look

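Chance alone sets 1 sample apart in about 1 in 20 groups, and 17 of 120 groups of 4 ventricle libraries had a sample far from the others. Of these, 12 were right ventricle control 2. There Col3a1 stood at 608.9 TPM (others 248.2 to 261.8), Col5a1 at 67.99 (37.4 to 41.78), Col5a2 at 78.72 (45.09 to 46.27) and Col11a1 at 5.852 (3.525 to 3.846). Col9a1 stood at 14.89 TPM (0.0687 to 0.3354), Col9a2 at 10.73 (4.089 to 5.056) and Col9a3 at 20.18 (0.529 to 1.785). Col6a6 stood at 3.02 TPM (1.234 to 1.498), Col8a2 at 1.835 (1.53 to 1.56), Col14a1 at 9.537 (8.675 to 8.787), Col26a1 at 26.48 (10.57 to 12.59) and Col27a1 at 8.755 (2.589 to 3.193).

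The other 5 lay in cKO ventricles. Left ventricle cKO 4 had Col6a6 at 3.663 TPM (others 2.275 to 2.468), Col9a3 at 3.254 (2.308 to 2.468) and Col15a1 at 13.77 (4.185 to 5.31). Right ventricle cKO 3 had Col4a1 at 306.0 TPM, below 325.7 to 329.2, and right ventricle cKO 4 had Col8a2 at 3.506 TPM against 1.658 to 1.856.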

How the results depend on the processing

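Over all alternatives, 2304 values of single collagen genes kept direction and side of the threshold, 139 lost and 61 gained a call, and 14 changed sign. The whole heart count of 4 became 14 with DESeq2, 14 with voom, 2 on length-scaled counts, 1 on log2(TPM + 1), 1 with the replicate block and 8 in 1 fit of all libraries. The count for the difference between ventricles of 0 became 1 with DESeq2 and 1 with voom. The count of 8 for left against right controls became 20 with voom and 5 on log2(TPM + 1). The shares of all genes called under these tools, scales and fits are not given here. Leaving out 1 library gave 0 to 9 calls in the whole heart, 13 to 20 in the left ventricle, 5 to 8 in the right, 0 to 1 for the difference, 4 to 19 for left against right controls, 16 to 22 in the cKO and 19 to 25 for whole heart against ventricles. The cause was not tested.

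With the replicate block the counts were 1, 16, 6, 0, 11, 20 and 24 in that order; apart from the whole heart no count moved by over 1.5 times. Same-numbered whole hearts correlated at -0.49 to -0.076, and the labels do not say whether they belong together.

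Changes of sign were few. Col5a1 in the right ventricle, near 0, went to -0.0039 (RLE and DESeq2), -0.0082 (library totals), -0.0044 (length-scaled), and -0.0216, -0.0077, -0.0793, -0.0722 and -0.034 without cKO 1, cKO 4, control 1, control 3 or control 4, and to 0.2201 without control 2. Col5a2 there went to 0.1126 (voom), 0.0097 (log2(TPM + 1)) and 0.1533 (without control 2), and was lowest at -0.1209 (without control 4). On length-scaled counts the whole heart against ventricle differences of Col4a5 and Col15a1 went to -0.0162 and -0.0266. Depth limits members under 1 TPM.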
